A study of Mus musculus with 29 samples.

Results

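The genes described here make up the hepatic methionine cycle and the methyl transfer reactions that draw on it. The set was fixed by name as Mat1a, Mat2a, Gnmt, Ahcy, Bhmt, Cbs, Cth, Pemt, Inmt and Nnmt. Of these 10 genes, 9 were read on the arrays and all 9 passed the filter on low values, among 14699 genes tested out of 22180. Mat2a was not analysed here.

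Livers of male C57BL/6N mice aged 8 to 10 weeks, kept on standard diet, were measured on 29 Affymetrix arrays. In the ligated groups the extrahepatic common bile duct had been tied (bile duct ligation, BDL), which blocks bile flow to the gut, and livers were taken at day 1, 3, 7 or 21, with 5 arrays per day. Sham operated livers came from day 1 (3 arrays), day 3 (2 arrays) and day 7 (4 arrays). The day 21 livers had no sham counterpart in the groups used and were set against sham livers of day 7, so in that comparison ligation and the longer time since surgery cannot be told apart. All mice shared strain, sex and diet, and no group carried a mutation or drug by the labels. Each title carries its own animal number, and the p-values rest on the spread between animals.

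The methionine cycle turns methionine into S-adenosylmethionine, the methyl donor of the cell, through methionine adenosyltransferases, of which Mat1a encodes the form of mature hepatocytes. Methyltransferases such as Gnmt, Pemt, Inmt and Nnmt spend the methyl group, and Ahcy splits the S-adenosylhomocysteine that is left into homocysteine and adenosine. Homocysteine is either methylated back to methionine, by Bhmt with betaine as the donor, or passed by Cbs and Cth to cysteine, the precursor of glutathione and taurine. The liver carries most of this traffic in mammals, and Pemt gives it a second source of phosphatidylcholine, the main phospholipid of bile.

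Promoter sequences from RefSeq (GRCm38.p6), the 250 bases before the annotated start, were found for 7 of the 10 genes. Those of Inmt, Gnmt and Cbs are shown because Inmt was lower at every day, Gnmt followed it most closely over the arrays among these genes, and Cbs passed no test. Capitals mark matches on either strand to any of 7 short motifs searched: the TATA box as TATAAA, the GC box as GGGCGG, the CCAAT box by its own letters, the C/EBP motif as TTNNGNAA, the nuclear receptor motif as AGGTCA, the antioxidant response element core as TGACNNNGC and the E-box as CACGTG.
Inmt, chr6:55174991-55175240, minus strand: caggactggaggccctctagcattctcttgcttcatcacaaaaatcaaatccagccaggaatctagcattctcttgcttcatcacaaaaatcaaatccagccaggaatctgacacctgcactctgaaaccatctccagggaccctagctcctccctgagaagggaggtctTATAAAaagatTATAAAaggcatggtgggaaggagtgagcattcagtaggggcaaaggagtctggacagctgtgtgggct
Gnmt, chr17:46729166-46729415, minus strand: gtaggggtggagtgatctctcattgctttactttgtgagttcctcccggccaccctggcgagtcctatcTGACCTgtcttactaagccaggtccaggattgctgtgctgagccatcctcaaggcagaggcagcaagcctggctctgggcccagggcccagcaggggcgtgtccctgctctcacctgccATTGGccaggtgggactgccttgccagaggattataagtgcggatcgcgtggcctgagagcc
Cbs, chr17:31637206-31637455, minus strand: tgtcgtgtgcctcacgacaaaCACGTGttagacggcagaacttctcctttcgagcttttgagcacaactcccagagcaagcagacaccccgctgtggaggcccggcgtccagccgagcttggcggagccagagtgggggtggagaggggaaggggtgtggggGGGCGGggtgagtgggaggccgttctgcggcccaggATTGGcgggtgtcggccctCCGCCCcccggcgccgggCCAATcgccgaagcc

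The Inmt stretch holds no CpG and 2 copies of TATAAA, which begin 80 and 69 bases before the start. TATAAA occurs in 12.4% of all 32851 promoter stretches of this length. The Gnmt stretch holds 6 CpG, 1 CCAAT match and 1 AGGTCA match, motifs present in 33.8% and 14% of the stretches. The Cbs stretch holds 21 CpG, 2 GC boxes, 2 CCAAT matches and 1 E-box, and its GC content was 68%, against 60.4% for Gnmt, 48% for Inmt and a median of 52.4% over all stretches. GC boxes occur in 32.7% and the E-box in 6.02% of the stretches, and TTNNGNAA (36.8%) and TGACNNNGC (10.2%) were not found in these 3. A match of letters is a description and not a site of binding.

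Array values are log2 intensities after RMA, which corrects background, equalises the arrays and summarises probes, so a step of 1 is a doubling. Array medians lay between 4.90 and 5.13. Of the day 1 arrays, 4 stood apart in an earlier report on these data, sham replicates 1 and 3 and BDL replicates 2 and 3. Their values had an SD of 2.03 to 2.04, where the remaining arrays had 2.09 to 2.18. For the 9 genes the day 1 difference is therefore also given within these arrays and in the remaining ones, with no test. The remaining day 1 arrays are 3 of BDL and 1 of sham, so each of those differences rests on 1 sham array. For the other genes named it was not computed. A change was called at an adjusted p under 0.05 in limma (Benjamini-Hochberg over the 14699 genes). Of all genes tested, 13.3% were called at day 1, 10.2% at day 3, 19.2% at day 7 and 25.2% at day 21, and their median log2 fold changes were 0.02, 0.02, 0.03 and 0.02. The split at day 1 was 1252 higher and 706 lower, but 1109 and 995 after cyclic loess scaling.

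**Figure D1:**
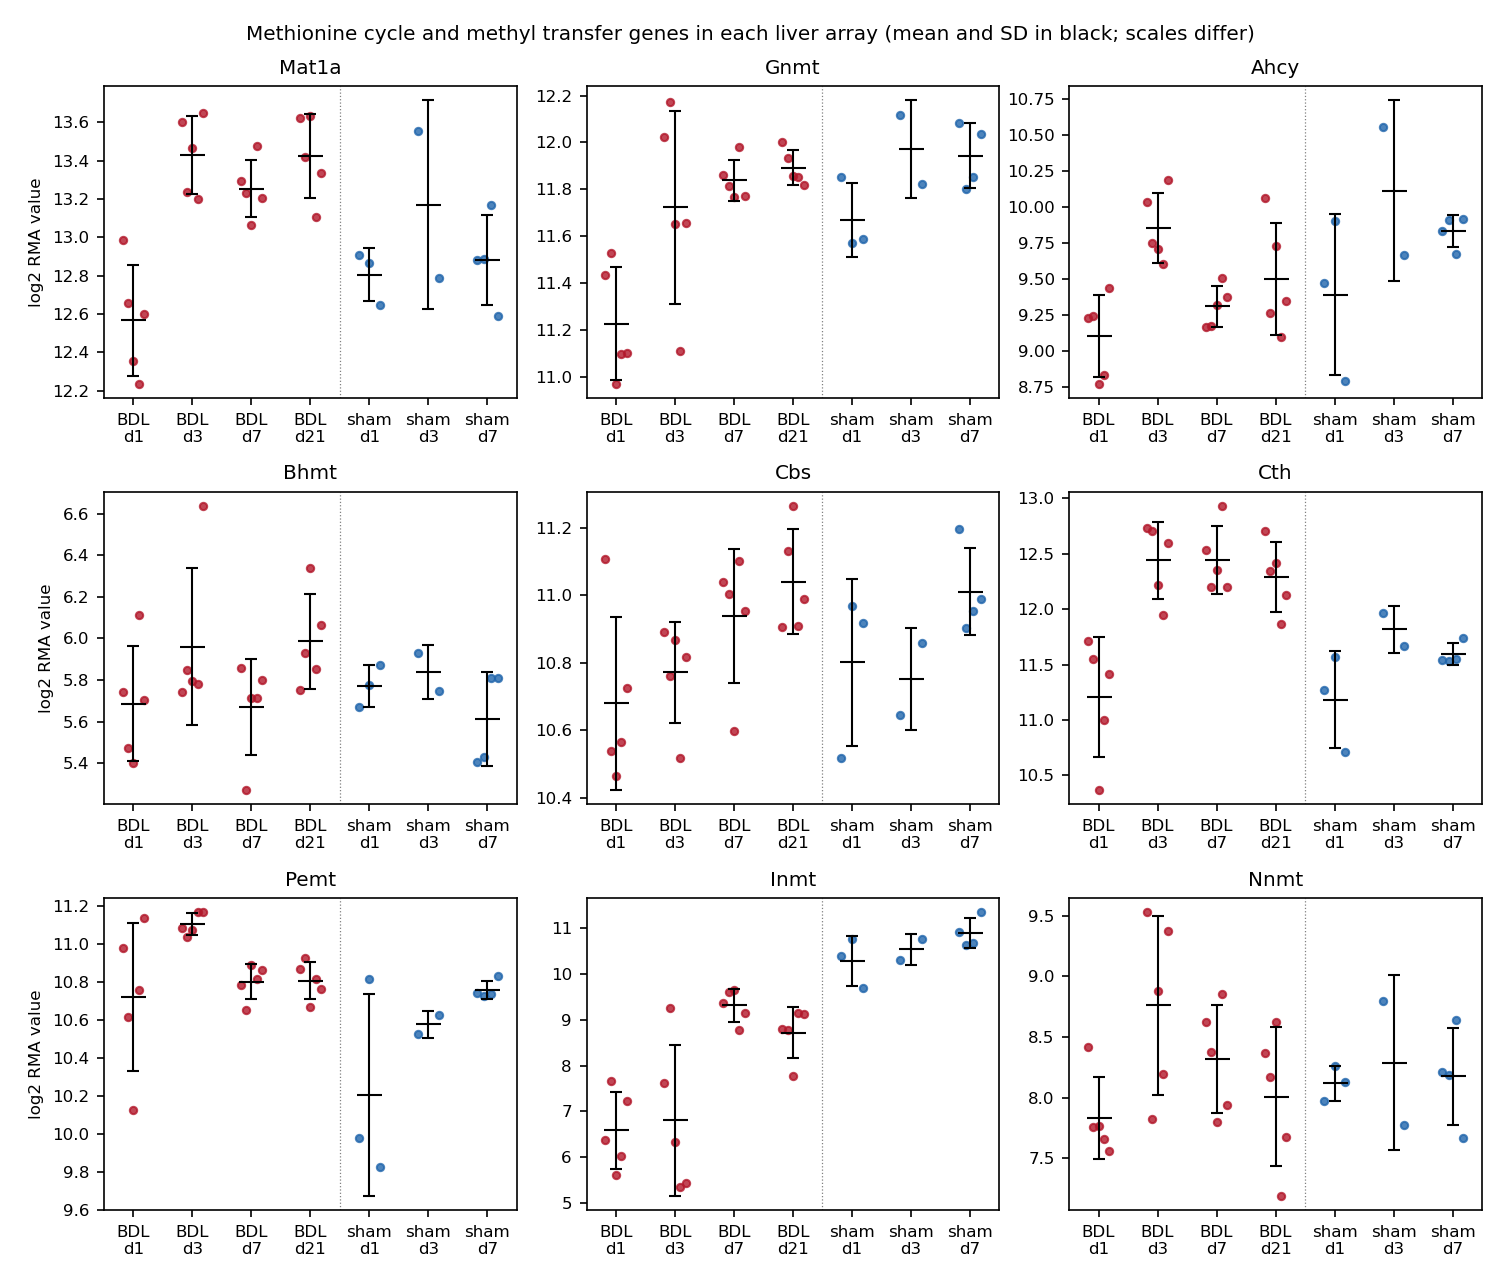
Log2 RMA value of each gene (vertical axis, scales differ between panels) in each array, BDL groups in red on the left and sham groups in blue on the right, with the group mean and SD in black. Inmt stood at 5.36 to 9.64 in the BDL arrays and at 9.68 to 11.34 in the sham arrays, while Cth was at 11.87 to 12.93 from day 3 of BDL on and at 10.71 to 11.97 in sham.

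Among the 9 genes, Inmt fell at every day after ligation, Cth rose at days 7 and 21, Mat1a rose at day 21 and Pemt rose at day 1. This gives 1 higher and 1 lower at day 1, 1 lower at day 3, 1 higher and 1 lower at day 7, and 2 higher and 1 lower at day 21. The background of genes called was 8.52% higher and 4.8% lower at day 1, 6.47% and 3.69% at day 3, 14.2% and 4.97% at day 7, and 17.3% and 7.9% at day 21. With 9 genes these counts are near what the background gives. The 5 others, Gnmt, Ahcy, Bhmt, Cbs and Nnmt, passed in no comparison of BDL with sham. The group means of the 9 genes spanned a median of 0.90 between their lowest and highest group, against 0.50 over all genes tested.

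**Figure D2:**
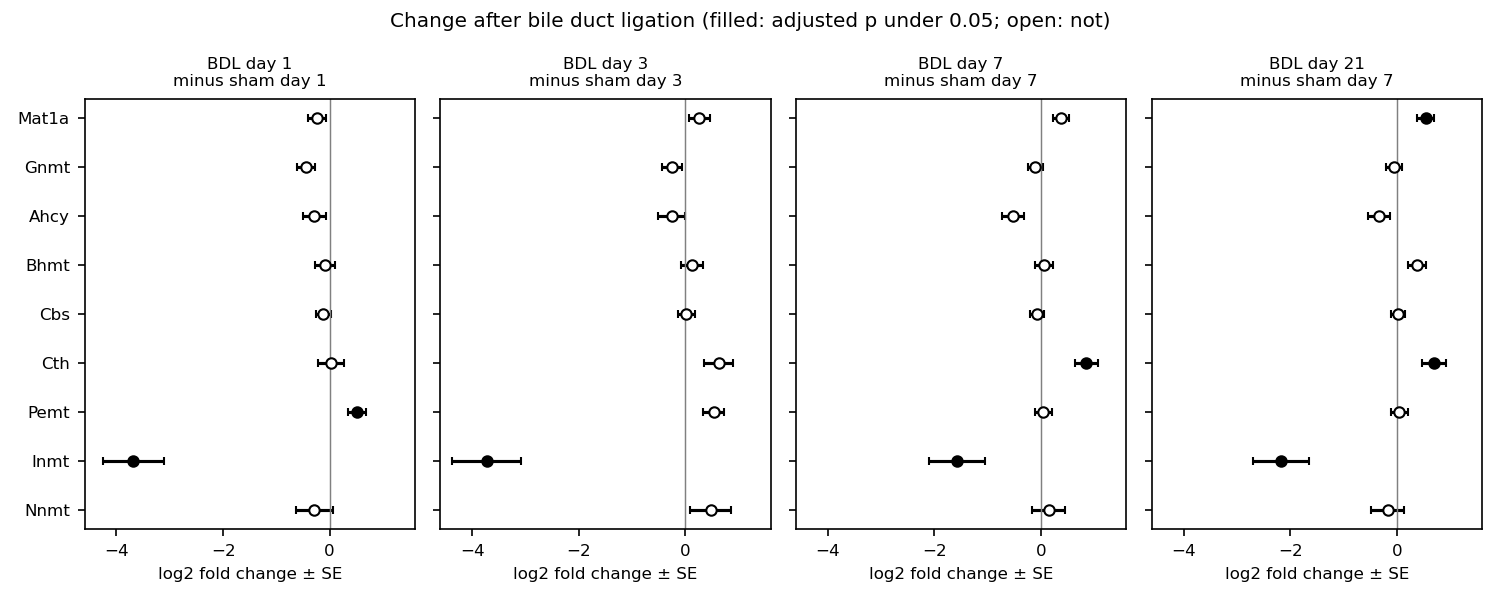
Log2 fold change of BDL minus sham (horizontal axis, ± SE) for the 9 genes at each day, with filled points for an adjusted p under 0.05. Inmt is the only gene filled in all 4 panels, at -3.68, -3.72, -1.58 and -2.17, and Cth is filled at days 7 and 21.

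Mat1a, which makes S-adenosylmethionine in mature hepatocytes, was higher late after ligation. At day 21 its log2 values were 13.62, 13.42, 13.63, 13.11 and 13.33 in BDL livers, against 12.88, 12.89, 13.17 and 12.59 in sham livers of day 7. The lowest BDL array lay below the highest sham array, so the groups overlapped. The log2 fold change was 0.54 ± 0.16 (SE), a ratio of 1.45, and passed in limma (adjusted p = 0.0108). It was 0.44 and did not pass (adjusted p = 0.0592) without sham day 7 replicate 4.

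Earlier days did not pass for Mat1a. Its log2 fold changes were -0.24 ± 0.17, 0.26 ± 0.20 and 0.37 ± 0.16 on days 1, 3 and 7 (SE, adjusted p in limma 0.41, 0.48 and 0.1). The day 1 difference was -0.27 within the 4 arrays that stand apart and -0.26 in the remaining ones. Against all 9 sham arrays the day 3 value was 0.51 and passed (adjusted p = 0.00522 in limma). Most of those arrays are of other days, so ligation and day are mixed there. Sham means of Mat1a were 12.81, 13.17 and 12.88 at days 1, 3 and 7. Within the ligated livers the gene rose between day 1 and day 3, standing at 13.43 ± 0.21 at day 3 and 12.57 ± 0.29 at day 1 (SD, n = 5 each), a difference of 0.86 ± 0.15 (SE, adjusted p = 0.000258 in limma). The groups did not overlap, as for 10.5% of all genes tested. The lowest group mean was that of BDL day 1 and the highest that of BDL day 3, and each step between neighbouring group means was 0.29 or smaller, beside a within-group SD of 0.24.

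Gnmt methylates glycine and so takes up surplus S-adenosylmethionine. Its log2 values at day 1 were 11.43, 11.53, 10.97, 11.10 and 11.10 in BDL livers, against 11.85, 11.57 and 11.59 in sham livers. Every BDL array lay below every sham array. Groups that did not overlap, in either direction, were found for 13.2% of all genes tested. The fold change of -0.44 ± 0.16 (SE) did not pass (adjusted p = 0.065 in limma). The call depended on the setting. Gnmt passed with cyclic loess scaling (-0.52, adjusted p = 0.0396 in limma) and without BDL day 1 replicate 2 (-0.52, adjusted p = 0.031). It also passed against all 9 sham arrays (-0.63, adjusted p = 0.000364), where ligation and day are mixed. Sham means were 11.67, 11.97 and 11.94 at days 1, 3 and 7. Within the 4 arrays that stand apart the difference was -0.47, and in the other day 1 arrays it was -0.36.

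At later days Gnmt lay closer to sham, with fold changes of -0.25, -0.10 and -0.05 on days 3, 7 and 21, the last with a 95% interval from -0.35 to 0.25. In ligated livers Gnmt rose between day 1 and day 3 by 0.50 ± 0.14 (SE, adjusted p = 0.0136 in limma). At day 3 BDL replicates 1 and 2 stood at 12.02 and 12.17, the other 3 at 11.65, 11.11 and 11.66, and sham at 12.12 and 11.82. The call between BDL day 3 and day 1 did not pass without BDL day 1 replicate 3 (0.43, adjusted p = 0.0501), with cyclic loess scaling (0.40, adjusted p = 0.0569) or with only the arrays compared in the fit (adjusted p = 0.0914).

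Ahcy clears S-adenosylhomocysteine, which otherwise blocks methyltransferases. Its values at day 7 were 9.16, 9.17, 9.32, 9.51 and 9.37 in BDL livers, against 9.83, 9.90, 9.67 and 9.92 in sham livers. The groups did not overlap, as for 20.1% of all genes tested, and the fold change of -0.52 ± 0.20 (SE) missed the threshold (adjusted p = 0.0722 in limma). It passed after quantile scaling (-0.58, adjusted p = 0.0322) and with only the arrays compared in the fit (adjusted p = 0.00288). At days 1, 3 and 21 the fold changes were -0.29, -0.26 and -0.33, with adjusted p of 0.449, 0.616 and 0.251. The day 1 value was -0.13 within the 4 arrays that stand apart and -0.74 in the remaining ones, of which 1 was sham. It lay between -0.59 and -0.03 when any array of the comparison was left out. Set against all 9 sham arrays, where ligation and day are mixed, the day 1 value was -0.65 and passed (adjusted p = 0.0105 in limma). Sham means were 9.39, 10.11 and 9.83 at days 1, 3 and 7. In the ligated livers Ahcy rose between day 1 and day 3, to 9.85 ± 0.24 at day 3, against 9.10 ± 0.29 at day 1 (SD, n = 5 each, adjusted p = 0.00749 in limma). With the array set as a term the rise was 0.60 and did not pass (adjusted p = 0.056).

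The arrays hold 2 rows annotated as Ahcy, and the values above come from the row of higher mean (9.53, against 7.23 in the other). All 20 annotated rows next to it in identifier order belong to genes on chromosome 16, whereas all 20 next to the other row lie on chromosome 2, where RefSeq places Ahcy. Whether the probes of the first row also bind another copy was not tested, so its level is uncertain. At day 7 the other row was at 6.80 ± 0.39 in BDL livers (SD, n = 5) and 7.43 ± 0.35 in sham livers (SD, n = 4), a fold change of -0.63 ± 0.24 (SE, adjusted p = 0.0608 in limma). Both rows thus had negative fold changes against sham at all 4 days without passing. Within the ligated livers the day 3 minus day 1 value of the other row was 0.04 (adjusted p = 0.917).

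**Figure D3:**
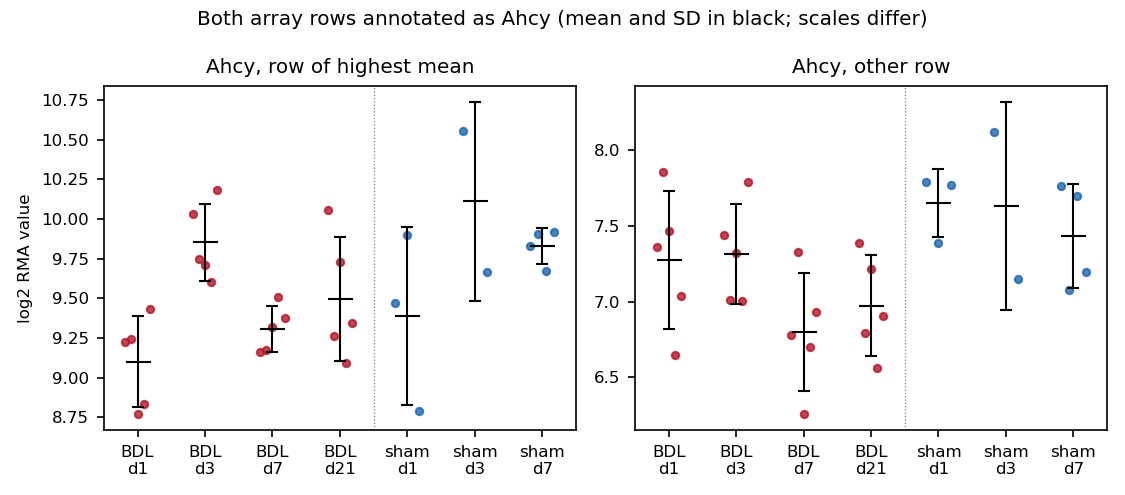
Log2 RMA value (vertical axis, scales differ) of both array rows annotated as Ahcy in each array, BDL groups in red left of sham groups in blue, with mean and SD in black. The row of higher mean was at 9.85 in BDL day 3 livers and 9.10 in BDL day 1 livers, and the other row was at 7.31 and 7.27.

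Bhmt, which returns homocysteine to methionine with betaine, had log2 values between 5.27 and 6.64 over all 29 arrays, close to the filter level of 5. Its fold changes were -0.09, 0.12, 0.06 and 0.37 at days 1, 3, 7 and 21, and none passed (adjusted p down to 0.106 in limma). At day 1 the difference was -0.33 within the 4 arrays that stand apart and 0.08 in the remaining ones. A signal that near the filter level limits what this row can show. Bhmt2, its neighbour in sequence that uses S-methylmethionine in place of betaine, rose at day 7 by 0.42 ± 0.13 and at day 21 by 0.39 ± 0.13 (SE, adjusted p = 0.0194 and 0.0261 in limma). It was not among the genes chosen by rule and is named after its values were seen.

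Cbs, which joins homocysteine and serine to cystathionine, passed in none of the comparisons. Its fold changes against sham ran from -0.12 at day 1 to 0.03 at day 21, and their 95% intervals lay within -0.41 and 0.35. The day 1 difference was -0.22 within the 4 arrays that stand apart and -0.17 in the remaining ones. Group means stood between 10.68 in BDL day 1 livers and 11.04 in BDL day 21 livers. No step between neighbouring group means exceeded the within-group SD of 0.19.

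Cth splits cystathionine into cysteine and also makes hydrogen sulfide, and its rise over sham was the largest among these genes. At day 7 the log2 values were 12.53, 12.20, 12.35, 12.93 and 12.20 in BDL livers, against 11.54, 11.53, 11.55 and 11.74 in sham livers. All BDL arrays lay above all sham arrays, by a fold change of 0.85 ± 0.22 (SE), a ratio of 1.81 (adjusted p = 0.00664 in limma). At day 21 the BDL livers stood at 12.71, 12.34, 12.42, 11.87 and 12.12, again above every sham array of day 7, with a fold change of 0.70 ± 0.22 (SE, adjusted p = 0.0206). Groups that did not overlap were found for 20.1% of all genes tested at day 7 and 25% at day 21. The day 21 call was lost without BDL day 21 replicate 1 (0.60, adjusted p = 0.0614) or sham day 7 replicate 2 (0.68, adjusted p = 0.0504).

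At day 1 Cth did not differ beyond its spread, at 11.21 ± 0.54 in BDL livers (SD, n = 5) and 11.18 ± 0.44 in sham livers (SD, n = 3). The 95% interval of that difference ran from -0.47 to 0.53, and it was -0.03 within the 4 arrays that stand apart and -0.19 in the remaining ones. At day 3 the BDL values were 12.73, 12.71, 12.22, 11.94 and 12.60, against 11.97 and 11.67 in sham, a fold change of 0.62 ± 0.28 (SE) that did not pass (adjusted p = 0.174 in limma). Set against all 9 sham arrays, where ligation and day are mixed, it was 0.94 and passed (adjusted p = 0.000593 in limma). Sham means were 11.18, 11.82 and 11.59 at days 1, 3 and 7. Within ligated livers Cth rose by 1.23 ± 0.21 (SE) between day 1 and day 3 (adjusted p = 0.000255), and the later steps were 0.0040 and -0.15. The effect of ligation at day 7 minus that at day 1 was 0.83 ± 0.33 (SE), which did not pass (adjusted p = 0.173).

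Pemt methylates phosphatidylethanolamine to phosphatidylcholine with methyl groups of S-adenosylmethionine. At day 1 its values were 10.98, 10.62, 10.12, 10.75 and 11.13 in BDL livers, against 9.98, 10.81 and 9.83 in sham livers. The groups overlapped through sham replicate 2 and BDL replicates 2, 3 and 4. The fold change of 0.52 ± 0.17 (SE) passed (adjusted p = 0.0407 in limma). The low sham arrays, replicates 1 and 3, are among the 4 that stand apart. The value was 0.14 without all 4 of those arrays, which leaves 1 sham array, and 0.47 within them. Against all 9 sham arrays, where ligation and day are mixed, it was 0.19 (adjusted p = 0.404 in limma). Set against sham day 1, Pemt was at 0.33 without sham replicate 3 (adjusted p = 0.314), 0.40 without replicate 1 (adjusted p = 0.219) and 0.82 without replicate 2. It also failed without BDL day 1 replicate 1, 4 or 5 (adjusted p of 0.0952, 0.0703 and 0.116).

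At day 3 Pemt stood at 11.08, 11.03, 11.07, 11.17 and 11.16 in BDL livers, against 10.52 and 10.63 in sham livers. The groups did not overlap, as for 26.4% of all genes tested at that day, where 2 sham arrays limit the test. The fold change was 0.53 ± 0.19 (SE, adjusted p = 0.0857 in limma). It passed in 7 of the alternatives, among them the fit without the 4 day 1 arrays (adjusted p = 0.000859). BDL day 3 was the highest group mean, and it did not overlap with the next, BDL day 21. At days 7 and 21 the fold changes were 0.04 and 0.05, with 95% intervals between -0.28 and 0.37.

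Inmt, which methylates indoleamines such as tryptamine and also thioethers, changed far more than the others. Day 1 values were 6.37, 7.66, 5.63, 6.04 and 7.24 in BDL livers, against 10.37, 10.75 and 9.68 in sham livers. The fold change of -3.68 ± 0.57 (SE) is a level 12.8 times lower (adjusted p = 4.99e-05 in limma). The difference was -3.38 within the 4 arrays that stand apart and -4.21 among the remaining day 1 arrays, of which 1 was sham.

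By day 3 the ligated livers had spread apart, at 7.62, 9.25, 6.34, 5.36 and 5.45, against 10.29 and 10.76 in sham livers. Replicates 1 and 2 were the high ones, and the SD was 1.64, against 0.36 to 0.85 in the other BDL groups. The fold change was -3.72 ± 0.65 (SE, adjusted p = 0.000309 in limma), a level 13.2 times lower. It lay between -4.34 and -3.36 when any array of the comparison was left out.

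At day 7 Inmt stood higher again, at 9.36, 9.61, 9.64, 8.78 and 9.15 in BDL livers, against 10.91, 10.62, 10.68 and 11.34 in sham livers. All BDL arrays were still below sham, where 20.1% of all genes tested had groups that did not overlap. The fold change was -1.58 ± 0.52 (SE), a level 2.99 times lower (adjusted p = 0.0308 in limma). The call was lost without sham day 7 replicate 1 or 4 (adjusted p of 0.0583 and 0.0929) or BDL day 7 replicate 4 or 5 (0.0725 and 0.061), the fold change staying between -1.67 and -1.43, and with a trended, robust prior (adjusted p = 0.0529). Day 21 livers stood at 8.80, 8.77, 7.76, 9.14 and 9.11, with a fold change of -2.17 ± 0.52 (SE, adjusted p = 0.00221).

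Between day 3 and day 7 of ligation Inmt rose by 2.50 ± 0.49 (SE, adjusted p = 0.00209 in limma). The steps from day 1 to day 3 (0.22) and from day 7 to day 21 (-0.59) did not pass. Ordered by level, the group means ran through BDL day 1, BDL day 3, BDL day 21, BDL day 7, sham day 1, sham day 3 and sham day 7. The first 2 did not differ beyond their spread. BDL day 3 overlapped BDL day 21, BDL days 21 and 7 did not differ beyond theirs, nor did the 3 sham groups, while the highest BDL day 7 array (9.64) lay just under the lowest sham day 1 array (9.68). The effect of ligation at day 7 minus that at day 1 was 2.10 ± 0.77 (SE), which did not pass (adjusted p = 0.124), and in a fit of those 4 groups alone it did (adjusted p = 0.0209).

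Nnmt, which methylates nicotinamide, did not pass against sham at any day. Its fold changes were -0.29 ± 0.34, 0.47 ± 0.39, 0.14 ± 0.31 and -0.17 ± 0.31 at days 1, 3, 7 and 21 (SE). At day 1 it was -0.29 within the 4 arrays that stand apart and -0.38 in the remaining ones. The BDL day 3 livers were widely spread, at 9.53, 7.82, 8.88, 8.20 and 9.37, against 8.80 and 7.78 in sham. Within ligated livers Nnmt rose between day 1 and day 3, by 0.93 ± 0.29 (SE, adjusted p = 0.0282 in limma). That call was lost in each fit without BDL day 3 replicate 1, 3 or 5 or BDL day 1 replicate 2, 3, 4 or 5 (adjusted p of 0.0525 to 0.0936), without the 4 arrays that stand apart (0.88, adjusted p = 0.139), with the array set as a term (adjusted p = 0.0945) and with only the arrays compared (adjusted p = 0.0543).

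Compared among days of ligation, 5 of the 9 genes rose from day 1 to day 3 and none fell, beside 18.5% of all genes tested that were called, 12% higher and 6.44% lower. These were Mat1a, Gnmt, Ahcy, Cth and Nnmt, by 0.50 to 1.23, and the median over the 9 genes was 0.50, against 0.01 over all genes tested. Ahcy enters here by its row of higher mean. The count was 4 with the other Ahcy row (0.04, adjusted p = 0.917 in limma). It was also 4 with the mean of all rows of a gene (Ahcy 0.40, adjusted p = 0.112). The 2 day 1 arrays that stand apart enter this comparison. In the fit with a term for the array set 3 of the genes passed, and 4 passed without those arrays. Sham means also stood higher at day 3 than at day 1, by 0.72 for Ahcy, 0.64 for Cth, 0.36 for Mat1a, 0.30 for Gnmt and 0.17 for Nnmt, where 0 of the 9 genes passed in limma (2 at an unadjusted p under 0.05, 0.293% of all genes called). The change in ligated livers minus that in sham livers was 0.03 for Ahcy, 0.60 for Cth, 0.50 for Mat1a, 0.20 for Gnmt and 0.76 for Nnmt. No such difference passed (adjusted p of 0.533 or more in limma, 0 at an unadjusted p under 0.05, 0.0748% of all genes called), so the rise is not shown to differ from that in sham livers. Without the 4 arrays that stand apart, which leaves 1 sham array at day 1, that difference was 0.48 for Ahcy. It was then 0.81 for Cth, 0.52 for Mat1a, 0.11 for Gnmt and 0.86 for Nnmt. For Pemt it was 0.39, against 0.01 with all arrays. Between day 3 and day 7, 1 gene rose (Inmt), beside 5.69% of all genes called, 4.6% higher and 1.1% lower. Ahcy and Pemt had groups that did not overlap there, as did 7.49% of all genes, and did not pass (-0.55 and -0.30, adjusted p = 0.0898 and 0.254). Between day 7 and day 21 no member passed in limma, with 0 at an unadjusted p under 0.05, and 0.864% of all genes were called, while 3.58% had groups that did not overlap and none of the 9 genes did. In sham livers no member differed between day 1 and day 7 (4.11% of all genes called, 1.15% higher and 2.96% lower) or between day 3 and day 7 (0%), with 1 and 0 at an unadjusted p under 0.05. That 1 was Pemt between day 1 and day 7 (-0.55 ± 0.18 SE, adjusted p = 0.0661). For the effect of ligation at day 7 minus day 1, 0 members passed in limma beside 4.33% of all genes (3.48% higher), and 4 had an unadjusted p under 0.05.

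Across the 29 arrays, Mat1a and Cth had the highest correlation among the members (Pearson r 0.85), and Pemt and Inmt the lowest (-0.31). Gnmt and Inmt were at 0.68, and Mat1a and Inmt at -0.04. The arrays share treatment and day, and each value is a description. Of the genes outside the set, those closest to Inmt were Car3 (r = 0.97), a carbonic anhydrase, Serpina6 (0.96), which encodes corticosteroid-binding globulin, and Rgn (0.95), which encodes regucalcin. Car3 stood at 6.95, 9.52, 5.14, 4.85 and 5.04 in BDL day 3 livers, against 11.56 and 12.98 in sham, so that replicate 2 was its highest array, as for Inmt. Cth lay closest to Aass (0.91), an enzyme of lysine breakdown, Cps1 (0.91), which starts the urea cycle, and Selenbp1 (0.87). By its row of higher mean, whose level is uncertain, Ahcy lay closest to the ubiquitin ligases Marchf6 (0.86) and Itch (0.84) and to Cobll1 (0.85). Nnmt lay closest to Ceacam19, Pptc7 and Cyp3a13 (each 0.78 or 0.79).

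**Figure D4:**
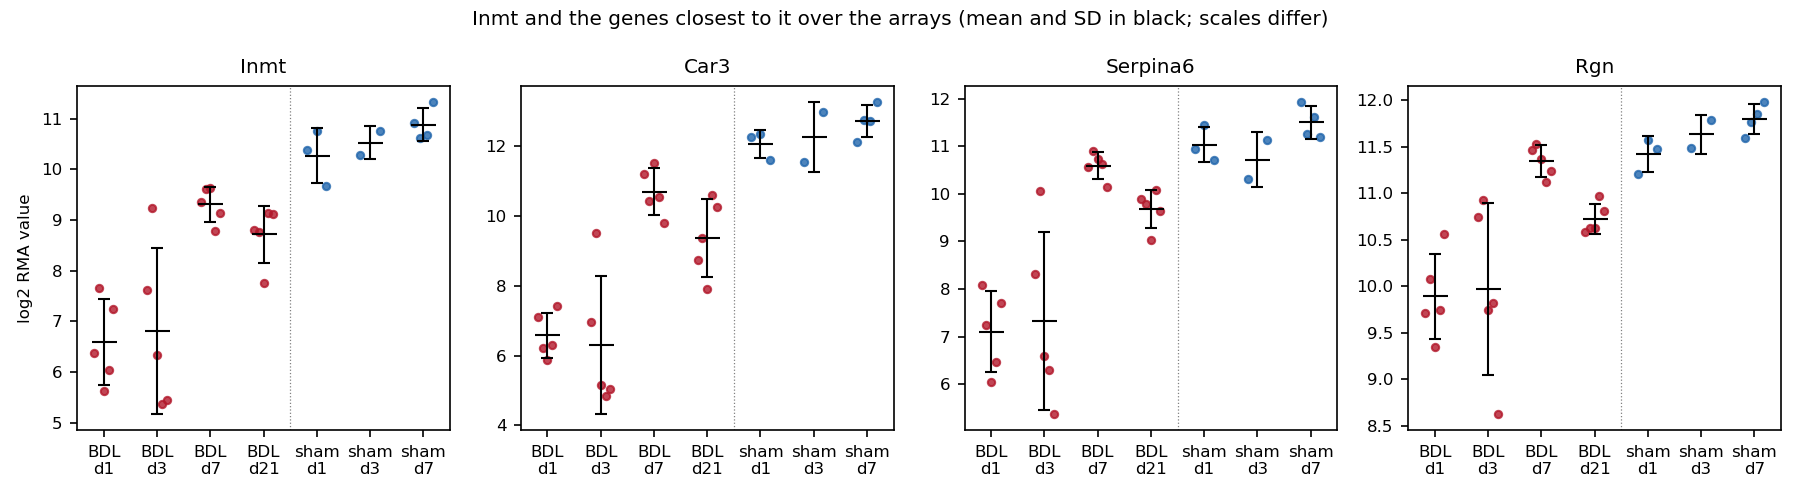
Log2 RMA value (vertical axis, scales differ) of Inmt and of the 3 genes with the highest correlation to it over 29 arrays, BDL groups in red left of sham groups in blue, with mean and SD in black. Mean Car3 was 6.58, 6.30, 10.70 and 9.37 in BDL livers of days 1, 3, 7 and 21, against 12.07, 12.27 and 12.73 in sham livers of days 1, 3 and 7.

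Genes around the cycle were taken from 8 lists of 100 genes, of which 86 were measured and 85 tested. Of all genes tested, 8.52% rose and 4.8% fell at day 1, and 6.47% and 3.69% at day 3. At day 7 it was 14.2% and 4.97%, and at day 21 it was 17.3% and 7.9%. The counts of all 8 lists stand beside these shares, and several are near them. Among 20 betaine, choline, folate and glycine genes 1 rose and 6 fell at day 1, 1 rose and 4 fell at day 3, 3 rose and 2 fell at day 7, and 2 rose and 2 fell at day 21. Their median fold changes were -0.28, -0.05, -0.0035 and -0.04. Shmt1, the cytosolic enzyme that moves a carbon from serine to folate, fell at all 4 days, by 1.58, 1.04, 0.63 and 0.84 on the log2 scale (adjusted p up to 0.0137 in limma). Its day 1 values were 8.37, 7.66, 7.52, 7.83 and 8.12 in BDL livers, against 9.55, 9.51 and 9.37 in sham livers. Mthfd1, the cytosolic folate enzyme, fell by 0.85 at day 1 and 0.42 at day 3, and Amt of the glycine cleavage system by 0.38 and 0.85. Mthfd1l, a mitochondrial folate enzyme, rose at day 3 (1.41 ± 0.28 SE, adjusted p = 0.00127). Its 2 sham day 3 arrays stood at 5.67 and 4.75, around the filter level of 5, and the BDL arrays at 6.46 to 6.87.

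**Figure D5:**
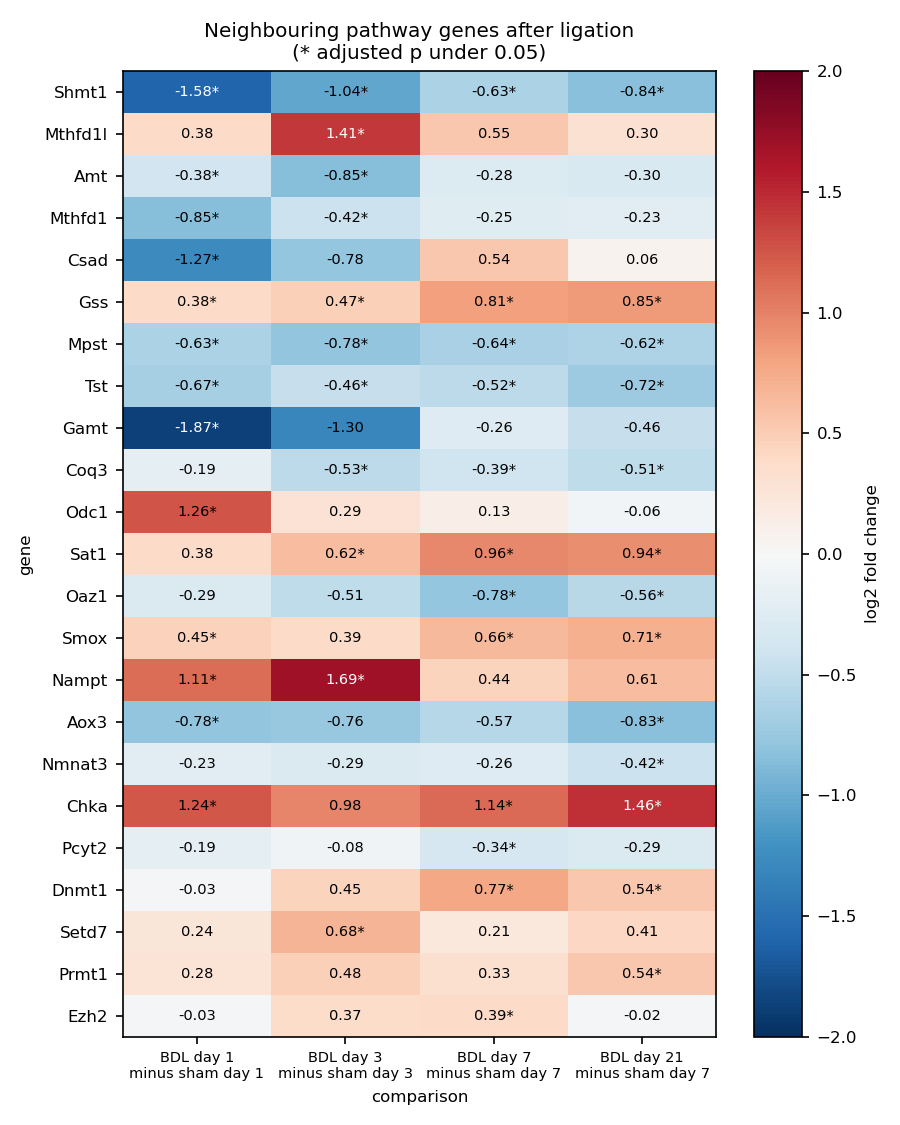
Log2 fold change of BDL minus sham (colour and printed value) for the genes named by rule from the pathway lists (rows) at each day (columns), with a star for an adjusted p under 0.05. Shmt1, Gss, Mpst and Tst carry a star at all 4 days.

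Downstream of Cth, 12 genes of cysteine breakdown and glutathione synthesis held 1 that rose and 3 that fell at day 1, 2 and 2 at day 3, 2 and 2 at day 7, and 3 and 3 at day 21. The medians were 0.0014, -0.0084, 0.13 and 0.13. Gss, glutathione synthetase, rose at each day, by 0.38, 0.47, 0.81 and 0.85, the last at 9.21 in BDL livers and 8.35 in sham livers (adjusted p = 1.1e-06 in limma). Mpst and Tst, sulfurtransferases that handle sulfane sulfur, fell at each day, by 0.62 to 0.78 and by 0.46 to 0.72 on the log2 scale, Tst just past the threshold at day 3. Csad, an enzyme of taurine synthesis, fell at day 1 (-1.27 ± 0.33 SE, adjusted p = 0.00883) and was at 0.54 at day 7 (adjusted p = 0.228).

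Of 9 other small molecule methyltransferases 1 fell at each day and none rose, with medians of -0.13, 0.11, 0.03 and 0.13. Gamt, which makes creatine and is a large consumer of methyl groups, fell at day 1, standing at 8.25, 7.55, 6.96, 7.94 and 8.10 in BDL livers, against 9.77, 9.65 and 9.48 in sham livers (-1.87 ± 0.38 SE, adjusted p = 0.00122 in limma). Its day 3 values were 9.50, 9.92, 8.16, 8.88 and 6.86 in BDL livers, against 9.91 and 10.02 in sham livers, and the fold change of -1.30 did not pass (adjusted p = 0.0582). Coq3 of ubiquinone synthesis fell at days 3, 7 and 21, by 0.53, 0.39 and 0.51. The 4 genes of MAT and AHCY partners (Mat2b, Ahcyl1, Ahcyl2, Mettl16) gave 0 calls at any day in limma, with 0, 1, 0 and 1 at an unadjusted p under 0.05, and medians of 0.09, -0.12, -0.02 and -0.0064.

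Polyamine and methionine salvage genes (11 tested) rose in 3 and fell in 1 at day 1, rose in 1 at day 3, and rose in 2 each at days 7 and 21 beside 1 and 2 that fell, with medians of 0.25, 0.03, 0.05 and -0.06. Odc1, the first enzyme of polyamine synthesis, rose at day 1 (1.26 ± 0.19 SE, adjusted p = 5.38e-05 in limma) and was at 0.29 at day 3 (adjusted p = 0.48). Sat1, which acetylates polyamines for breakdown, rose by 0.62, 0.96 and 0.94 at days 3, 7 and 21, and the spermine oxidase gene Smox by 0.45, 0.66 and 0.71 at days 1, 7 and 21. Smox was close to the filter level of 5, with means of 5.74 and 5.51 in sham livers of days 1 and 7. Oaz1, the brake on Odc1, fell at days 7 and 21, by 0.78 and 0.56.

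Of 10 nicotinamide and NAD genes 1 rose and 1 fell at day 1, 1 rose at day 3, 0 passed at day 7 in limma (2 at an unadjusted p under 0.05) and 2 fell at day 21, with medians of -0.27, -0.09, -0.09 and -0.24. Nampt, which recycles the nicotinamide that Nnmt methylates, rose by 1.11 ± 0.29 at day 1 and 1.69 ± 0.33 at day 3 (SE, adjusted p = 0.00983 and 0.00116). Aox3, an aldehyde oxidase, fell at days 1 and 21, by 0.78 and 0.83. Nmnat3, a nicotinamide mononucleotide adenylyltransferase gene, fell by 0.42 at day 21. Beside Pemt, the 7 tested genes of the CDP-choline and ethanolamine pathways gave 1 rise at day 1, 0 calls at day 3 (1 at an unadjusted p under 0.05), 1 rise and 1 fall at day 7 and 1 rise at day 21, with medians of -0.06, -0.08, -0.02 and -0.10. Chka, choline kinase, was that rise each time, by 1.24, 1.14 and 1.46 (adjusted p up to 0.0281 in limma). At day 1 its groups overlapped, with sham arrays at 6.44, 8.05 and 8.68 and BDL arrays at 8.64 to 9.41. Sham replicates 1 (6.44) and 3 (8.68) are among the 4 arrays that stand apart. Pcyt2 fell by 0.34 at day 7. Among 12 DNA and protein methyltransferases 0 passed at day 1 (2 at an unadjusted p under 0.05), 1 rose at day 3, 3 rose at day 7, and 2 rose and 1 fell at day 21, with medians of -0.01, 0.13, 0.21 and 0.21. Dnmt1, the maintenance DNA methyltransferase, rose by 0.77 and 0.54 at days 7 and 21. Ezh2 rose by 0.39 at day 7, Setd7 by 0.68 at day 3 and Prmt1 by 0.54 at day 21. Setd7 and Prmt1 were close to the filter level, with sham means of 5.27 at day 3 and 5.85 at day 7.

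Liver tissue mixes cell types, and in bulk tissue fewer hepatocytes and less RNA per hepatocyte cannot be told apart. The mean log2 level of 10 measured hepatocyte markers had group medians of 11.79 to 11.89 in BDL livers and 11.88 to 11.95 in sham livers, and 1, 3, 3 and 3 of them fell at days 1, 3, 7 and 21 with none higher. At day 21 the marker Serpina1a fell by 0.68 and Cps1 was at 0.28 (adjusted p = 0.0649 in limma). The 7 measured cholangiocyte markers averaged 6.82 to 7.22 in BDL day 21 arrays and 5.44 to 5.79 in sham day 7 arrays, and all 7 rose, from Krt7 (0.94) to Cd24a (1.81). Stellate cell and myofibroblast markers (9 measured) averaged 8.69 to 9.34 and 6.86 to 8.52 in those groups, with 8 of 9 higher, led by Col1a1 (2.71), while Des was at 0.28. The sham day 7 median was 7.11, and the highest sham array (8.52) lay within the BDL day 7 range of 8.39 to 8.81. That sham group is the reference at days 7 and 21. For macrophage markers (9 measured) the ranges in BDL day 21 and sham day 7 arrays were 8.74 to 9.26 and 6.89 to 7.25. All 9 of 9 were higher, from Clec4f (0.65) to Gpnmb (3.46). Neutrophil markers averaged 4.81 to 5.63 and 4.55 to 4.70, with S100a8 at 1.04 and Elane at -0.17, and lymphocyte markers 4.50 to 5.36 and 4.54 to 5.25, with Cd3g at 0.41 and Cd79a at -0.73. Sinusoidal endothelial markers averaged 8.17 to 8.78 and 8.46 to 8.65, with Pecam1 at 0.47 and Dnase1l3 at -0.68, and cell cycle genes 5.88 to 6.55 and 5.47 to 5.96, with Ccnd1 at 1.19 and Cdk1 at 0.32. Group means of 0 of the 10 hepatocyte and 0 of the 9 macrophage markers were under the filter level in BDL day 21 livers. In sham day 7 livers it was 0 and 2. Of the neutrophil markers 4 of 8, and of the lymphocyte markers 4 of 7, were under it in both groups. Cholangiocyte markers gave 0 and 2 of 7. Against sham day 7, 4 of 7 neutrophil markers tested were higher at day 21 and 1 of 4 lymphocyte markers lower. Of 8 sinusoidal endothelial markers 1 was higher and 3 lower, and 1 of 7 cell cycle genes was higher. Among all genes tested, 17.3% were higher and 7.9% lower. At day 1, where Inmt and Gamt fell, 6 of 8 sinusoidal endothelial markers also fell, averaging 6.95 to 7.51 in BDL arrays and 7.58 to 8.45 in sham arrays. In the same comparison 4 of 7 neutrophil, 4 of 9 macrophage, 2 of 7 cholangiocyte and 1 of 7 cell cycle markers tested rose. From the remaining calls, 1 macrophage and 1 hepatocyte marker fell. Of the 8 neutrophil markers, 6 sham and 2 BDL group means at day 1 were under the filter level. Of all genes tested, 8.52% were higher and 4.8% lower. The 4 arrays that stand apart enter these counts, and no split was computed for the markers. The part of these markers in the values of the methionine cycle genes was not tested.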

How the data were processed

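Liver RNA of 29 mice was read on 1 array each, and groups follow the source labels. The authors deposited log2 values. Per the submitters' processing notes, the tool was oligo (1.52.0) with RMA. The genome build, and which arrays entered one RMA run, are not given in the sources used here. Per the labels' protocols the array was another Affymetrix design than the one that the row identifiers match, whose platform annotation gave the gene names. Of 41345 rows, 23521 had 1 symbol, 1814 several and 16010 none. Symbols were updated by gene ID through RefSeq (GRCm38.p6, 23328 rows matched). The row of highest mean was kept per gene (22180 genes), and a gene was tested (14699) if 3 or more arrays exceeded a log2 level of 5.

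Groups were compared in limma 3.58.1 (R 4.3.3, lmFit and eBayes) through a single fit of all 29 arrays in which every group had its own mean, with two-sided p-values adjusted by Benjamini-Hochberg over all genes tested. It was tested on simulated data. Arrays have no sequencing depth, so their number limits precision. Named genes are the members, up to 4 genes per pathway list with the largest change past the threshold, the 3 genes closest to each of the 4 members of widest range by Pearson correlation, and the extreme markers at day 21. Alternatives concerned filters, rows, scaling, priors, weights, array sets and single arrays. The members, lists and tests were chosen with earlier results of these data known.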

Additional observations from a re-analysis of the deposited data

Results flagged for a closer look

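Among 45 sets of 4 or 5 arrays (9 genes in 5 groups), 6 held an array far from the rest by Dixon's criterion, which flags about 1 set in 20 by chance. Bhmt was at 6.63 in BDL day 3 replicate 5 (nearest 5.85) and at 5.27 in BDL day 7 replicate 2 (nearest 5.71). Cth stood at 11.74 in sham day 7 replicate 4 (nearest 11.55), and Pemt at 10.83 in the same array (nearest 10.74), gaps that are small on the log2 scale. Inmt was at 7.76 in BDL day 21 replicate 3 (nearest 8.77). Nnmt was at 8.42 in BDL day 1 replicate 1 (nearest 7.77).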

How the results depend on the processing

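No direction was reversed in a called result under any alternative run. At day 1 the count of 2 members was 1 with no filter and with only the arrays compared, 3 with cyclic loess, and 1 to 3 when 1 array was left out. Against all 9 sham arrays it was 3, with 0 higher and 3 lower, as Pemt did not pass while Gnmt and Ahcy did. Fits against all 9 sham arrays mix ligation with day. The count of 1 at day 3 was 2 with quantile scaling, cyclic loess, array weights, the array set as a term, without the 4 arrays or with only the arrays compared, 4 against all 9 sham arrays, and 1 in each fit that left out 1 array. At day 7 the count of 2 was 1 with the trended, robust prior, 4 with only the arrays compared and 1 to 2 leaving out 1 array. Through Ahcy it was 3 with the mean of all rows of a gene, quantile scaling, cyclic loess, array weights or without the 4 arrays. At day 21 it was 3, 4 with array weights, and 2 to 3 leaving out 1 array. Between BDL day 3 and day 1 the count of 5 was 3 with the array set as a term or only the arrays compared (3 to 6 leaving out 1). It was 4 with cyclic loess, without the 4 arrays, with the mean of all rows of a gene or with the other Ahcy row. Between BDL day 7 and day 3 the count of 1 was 2 with quantile scaling, cyclic loess or the array set as a term, and 3 with array weights, without the 4 arrays or with only the arrays compared. Sham day 1 against day 7 gave 1 with array weights and 0 to 2 leaving out 1 array, and the effect at day 7 minus day 1 gave 1 with array weights, 1 with only the arrays compared and 0 to 1 leaving out 1. BDL day 21 against day 7 and sham day 3 against day 7 gave 0 throughout. The causes were not tested. The alternative with the other Ahcy row and the tests of sham day 3 against day 1 were chosen after seeing the data. No paired analysis was possible because the labels give no shared replicate numbers.

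Counts over all genes moved more: 1958 at day 1 became 704 with only the arrays compared and 3198 against all 9 sham arrays. It became 1268 or 1299 without sham day 1 replicate 1 or 3. Fits without the 4 arrays leave 1 sham array at day 1, so no count that uses that group is given for them. At day 3, 1493 became 921 with only the arrays compared, 668 or 881 without sham day 3 replicate 2 or 1 and 3481 against all 9 sham arrays. At day 7, 2819 became 4375 against all 9 sham arrays. Between BDL day 3 and day 1, 2715 became 1444 without the 4 arrays, 1479 with the array set as a term, 1779 with only the arrays compared and 1718 without BDL day 1 replicate 3. Between BDL day 7 and day 3, 837 became 1845 with array weights, 1284 with the array set as a term, 1308 without the 4 arrays and 472 at the lowest leaving out 1 array. Between BDL day 21 and day 7, 127 became 463 with array weights, 235 with only the arrays compared and 59 at the lowest leaving out 1. In sham livers, 604 for day 1 against day 7 became 1879 with array weights. It became 1 with the array set as a term, 0 with only the arrays compared, and 2 to 3040 leaving out 1 array. Day 3 against day 7 stayed at 0 in every alternative that left out no single array. For the effect at day 7 minus day 1, 637 became 1076 with the array set as a term.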
